A study of Mus musculus with 18 samples.

Results

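The 10 genes described here encode the interleukin-2 (IL-2) receptor, the kinase and transcription factors that carry its signal, and the inhibitors that this signal switches on. They were chosen by name, not by their values, out of 55487 gene IDs in the deposited tables: Il2ra, Il2rb, Il2rg, Jak3, Stat5a, Stat5b, Cish, Socs1, Socs2 and Socs3. Each was followed across mouse regulatory T (Treg) cells, the CD4+ Foxp3+ T cells that restrain immune responses. The cells were sorted fresh from 6 sites of untreated wild-type mice, namely lung, liver, spleen, bone marrow, lymph node and peripheral blood, with 3 poly(A) RNA libraries per site and 18 in all. No group carries a transgene, deletion or treatment. The labels give neither strain, sex, age, sorting gates nor the number of mice per library, and they do not say whether the 3 libraries of a site came from separate animals. The p-values below therefore measure the spread between libraries, which may be technical.

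On Treg cells, the alpha chain CD25 (Il2ra), the beta chain (Il2rb) and the common gamma chain (Il2rg) together form the high-affinity receptor for IL-2. The beta and gamma chains also serve IL-15, and the gamma chain serves IL-4, IL-7, IL-9 and IL-21. Binding activates the kinases Jak1 and Jak3, which phosphorylate the transcription factors Stat5a and Stat5b. These move to the nucleus and induce target genes, among them Cish and members of the suppressor of cytokine signalling (Socs) family, whose proteins damp receptor signalling. Treg cells make little IL-2 of their own and need it from other cells to maintain Foxp3.

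In GENCODE M21 (GRCm38, called mm10 in the submitters' processing notes), the receptor genes lie at chr2:11642807-11693193 on the plus strand (Il2ra, ENSMUSG00000026770), chr15:78479256-78495271 on the minus strand (Il2rb) and chrX:101264378-101268255 on the minus strand (Il2rg). Jak3 lies at chr8:71676296-71690575 on the plus strand. Stat5a (chr11:100859351-100885169, plus strand) and Stat5b (chr11:100780731-100850724, minus strand) are neighbours that point away from each other. Cish lies at chr9:107296026-107302784 on the plus strand, Socs1 at chr16:10782240-10785536, Socs2 at chr10:95385362-95417180 and Socs3 at chr11:117966079-117970047, all 3 on the minus strand.

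STAT dimers bind the palindromic motif TTCNNNGAA, which reads the same on both strands. It was searched in RefSeq promoter windows (GRCm38.p6) that run from 250 bases before to 50 bases after each annotated start. The windows matched 8 of the 10 genes, with 10 windows in all, and the other 2 genes are Il2rb and Socs2. Windows of Cish and Socs3 held the motif, and these 2 genes are also those with the most distinct levels in blood and in lung, which is why their sequence is shown. Over all 32851 windows, 8.3% held at least 1 match and 0.457% held 2 or more, overlapping matches counted. The Cish stretch is chr9:107296654-107296683 on the plus strand, where the matches begin at bases 1 and 12 counted from the RefSeq start. The Socs3 stretch is chr11:117969501-117969530 on the minus strand, with its match at base -154. Capitals mark the motif, 5′ to 3′:
Cish: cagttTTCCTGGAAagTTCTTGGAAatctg
Socs3: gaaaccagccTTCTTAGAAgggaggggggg
GENCODE M21 starts 1 Cish transcript at 107296026 and the next at 107296710. The printed Cish stretch thus lies after the first start and before the second. In GENCODE M21 the Socs3 gene spans 117966079 to 117970047, so the printed Socs3 stretch lies within the annotated gene. A match describes these letters only and shows no binding.

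Levels are given in TPM, transcript abundances corrected for length and scaled to a common total per library, so levels of different genes can be compared. A share also falls when other RNA takes up more of the library. Differences were tested with limma on log2(TPM + 1), with Benjamini-Hochberg adjustment over the 16694 genes tested, and a gene was called at an adjusted p under 0.05. Because the share of T cell RNA differed between sites, each fold change was also computed after scaling every library to the geometric mean of 20 T cell genes, and after scaling to Foxp3. That T cell mean was 153.9 ± 1.52 TPM in blood (SD, n = 3). It was highest in lymph node (346.3 ± 2.78), and stood at 299.4 ± 3.05 TPM in liver, 286.5 ± 2.90 in spleen, 244.1 ± 4.44 in lung and 229.8 ± 3.31 in bone marrow. Scaling to it raised the median log2 fold change of all genes by 0.45 to 0.92 in the 5 blood comparisons, and Foxp3 scaling raised it by 0.53 to 1.15. Foxp3 is also among the STAT5 target genes counted below, so it is not a reference outside this pathway.

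All 10 Treg marker genes, Foxp3 among them, averaged at least 1 TPM at every site. This floor cannot check the sort label, because markers of other cells also passed it, as given below. The summed TPM of the 10 was 843.4 to 869.9 in blood, 1572 to 1605 in bone marrow and 1902 to 2051 in spleen. It was 2455 to 2525 in lymph node, 2475 to 2582 in liver and 3109 to 3120 in lung. Foxp3 itself ranged from 85.4 to 92.16 TPM in blood, from 131.69 to 165.18 in spleen, bone marrow and liver, and from 222.04 to 240.34 in lung and lymph node. RNA of other cells was also present, and unequally. The summed TPM of 14 myeloid markers was 25270 to 26220 in blood and 47220 to 47530 in bone marrow, against 1680 to 1767 in lung, 640.4 to 814.1 in spleen, 195.5 to 389.8 in liver and 34.49 to 84.53 in lymph node. All 14 averaged at least 1 TPM in blood, bone marrow, lung and spleen, 13 in liver and 6 in lymph node, and none was at 0 throughout a site. The 10 natural killer and CD8 T cell markers, all averaging at least 1 TPM in blood, summed to 661.8 to 714 TPM there and to 60.2 to 135.6 elsewhere. Lung epithelium markers summed to 226.7 to 303.4 TPM in lung and to at most 14.2 elsewhere. Platelet markers summed to 2209 to 2244 TPM in blood and to at most 82.77 elsewhere. Erythroid markers reached 10930 to 11970 TPM in liver and 72.76 to 6549 elsewhere. B cell markers ran from 64.44 TPM in liver to 638.6 in blood. The part of such RNA in the results below was not tested, and in bulk RNA fewer cells of a type cannot be told apart from less RNA per cell. Between 14314 and 19797 genes were above 0 TPM in a library, with the fewest in liver. TPM keeps no read depth, so no counting interval is given.

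All 10 genes differed among the 6 sites (limma F test, largest adjusted p = 2.05e-06, Il2rg), in a table where the same test called 68% of all genes. The highest site mean exceeded the lowest 9.20-fold for Socs3, 6.33-fold for Stat5a, 6.24-fold for Cish and 4.09-fold for Il2ra. It did so 3.73-fold for Socs1, 3.48-fold for Stat5b, 2.87-fold for Jak3, 2.65-fold for Socs2 and 2.47-fold for Il2rb. Il2rg varied least, at 1.78-fold. The genes did not share one order of sites: blood was lowest for 6 of them, bone marrow for 4, lung was highest for 6, lymph node for 3 and liver for 1. When the sites were ranked for each gene, 27 of the 50 neighbouring pairs differed at an adjusted p under 0.05. These orders are on the deposited scale, and the 2 scalings changed several of them, as given for each gene.

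**Figure D1:**
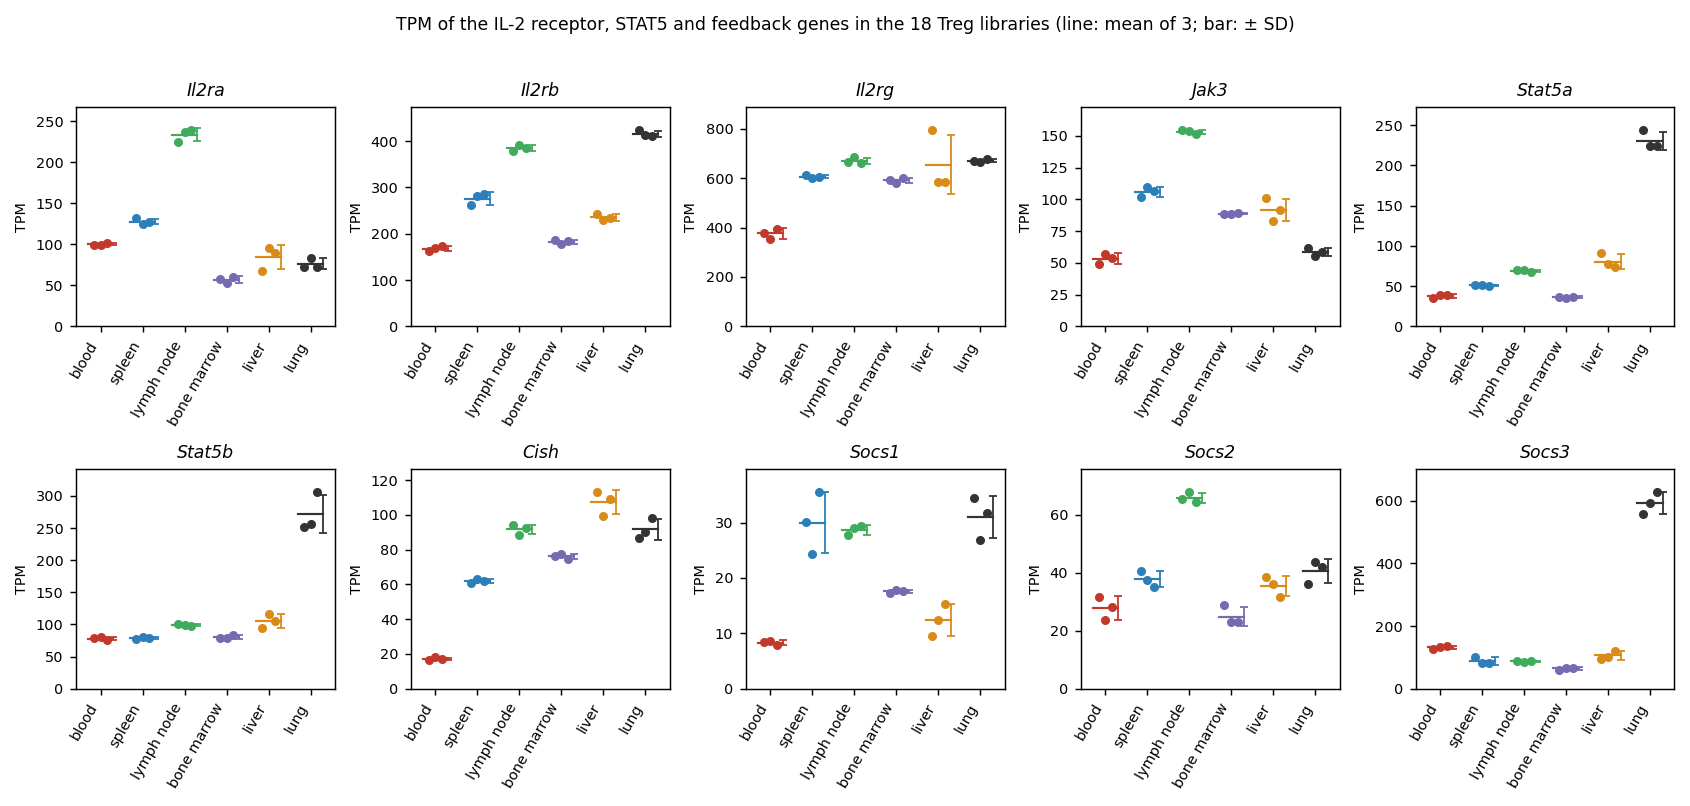
TPM (vertical axis, from 0) of each of the 10 genes in every library, by site; points are libraries, horizontal lines are means of 3 and bars are ± SD. Cish sits between 16.71 and 17.95 TPM in blood and above 60 elsewhere, Stat5a, Stat5b and Socs3 stand highest in lung, and Il2ra, Jak3 and Socs2 stand highest in lymph node.

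The receptor chains followed 3 different patterns. Since the sorting gates are not given, it is not known whether CD25, the Il2ra product, was used to sort the cells. Il2ra, the chain that gives the receptor its high affinity, read 224.93, 237.11 and 239.20 TPM in the lymph node libraries and 131.75, 125.11 and 126.91 in spleen. Blood held 99.78, 99.67 and 102.16 TPM, liver 68.00, 95.92 and 88.99, lung 72.55, 83.93 and 72.27, and bone marrow 57.91, 52.78 and 60.70. Every lymph node library stood above every spleen library, and every spleen library above all others. By limma, lymph node exceeded spleen (log2 fold change 0.86, adjusted p = 3.37e-05), spleen exceeded blood (0.34, adjusted p = 0.0152) and lung exceeded bone marrow (0.41, adjusted p = 0.00425). Blood against liver (adjusted p = 0.0511) and liver against lung (adjusted p = 0.348) did not pass. In liver, the first library lay below the other 2; without it, Il2ra was lower in lung than in liver (log2 fold change -0.28, adjusted p = 0.0119). Blood exceeded liver by 1.22 with T cell scaling and by 1.01 with Foxp3 scaling, and also without the second (adjusted p = 0.0093) or the third liver library (0.0416) and with median-ratio scaling (0.0176). With Foxp3 scaling, lymph node and spleen could not be ordered (adjusted p = 0.654), lung fell below liver by 0.76, and lung against bone marrow turned to -0.22 (adjusted p = 0.185). The lower Il2ra in blood than in spleen lost its call without the first spleen library (adjusted p = 0.0507) and with median-ratio scaling (0.0569), and it turned to 0.55 under T cell scaling. The lower Il2ra in blood than in lymph node (-1.21) lost its call with T cell scaling (-0.046, limma adjusted p = 0.738). With Foxp3 scaling that difference was 0.21 and did not pass (limma adjusted p = 0.201). Blood stood above lung (0.40) and bone marrow (0.81) under every alternative tried.

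Il2rb, the signalling chain shared with the IL-15 receptor, averaged 415.2 ± 6.96 TPM in lung and 384.9 ± 6.90 in lymph node (SD, n = 3), a pair that did not pass (adjusted p = 0.0657) except with T cell scaling (log2 fold change 0.61), with median-ratio scaling (adjusted p = 2.24e-05) and when only these 6 libraries were fitted (0.0391). It fell through spleen (275.9 ± 13.1) and liver (235.3 ± 7.19) to bone marrow (182.8 ± 4.42) and blood (168.0 ± 5.15). Each of those steps passed except the last (adjusted p = 0.0532), which passed under library weights (0.00477) and when only these 6 libraries were fitted (0.0397). Both scalings called that last step the other way, with blood above bone marrow by 0.45 (T cell) and 0.61 (Foxp3). With T cell scaling, liver and bone marrow could not be ordered (adjusted p = 0.8), and with Foxp3 scaling spleen exceeded lymph node by 0.29. The lung level exceeded that of bone marrow by 1.18 and that of liver by 0.82 on the log2 scale, under every alternative tried.

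Il2rg, the common gamma chain, had the highest level of the 3 chains at every site. It averaged 376.2 ± 20.6 TPM in blood, and the means elsewhere ran from 590.8 ± 9.17 (bone marrow) to 670.2 ± 5.61 (lung). Liver held 792.95, 585.61 and 584.39 TPM, so that the first library lay far above the other 2. Blood was lower than each other site (log2 fold changes -0.65 to -0.83), while no pair among the other 5 sites passed. Without the first liver library, lung exceeded liver by 0.20 (adjusted p = 0.0016). With median-ratio scaling, lung exceeded lymph node (adjusted p = 0.0428) and bone marrow (0.00494). Lung also exceeded bone marrow without abundant RNA classes (adjusted p = 0.00793), and both bone marrow (0.00468) and spleen (0.0153) when only the 6 libraries compared were fitted. T cell scaling placed lung above spleen (0.38), lymph node (0.51) and liver (0.34), whereas Foxp3 scaling placed it below spleen (-0.57), bone marrow (-0.46) and liver (-0.58). Under T cell scaling and under Foxp3 scaling Il2rg was no longer called lower in blood at any site, and it was higher there than in lymph node: as a percentage of the T cell mean, Il2rg was 244.5% in blood and 193.3% to 274.5% elsewhere.

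Jak3, the kinase that binds the gamma chain, was lowest in blood and lung. Its libraries read 49.25, 57.33 and 53.61 TPM in blood and 61.79, 55.27 and 58.85 in lung, and these 2 ranges overlapped (adjusted p = 0.177). Bone marrow held 88.78, 88.22 and 89.41 TPM, liver 100.71, 83.18 and 91.52, spleen 101.91, 109.87 and 106.50, and lymph node 154.31, 153.68 and 151.35. No lung library reached any library of these 4 sites. Against lung, Jak3 was 1.51-fold higher in bone marrow, 1.57-fold in liver, 1.81-fold in spleen and 2.61-fold in lymph node (largest adjusted p = 1.24e-05). All 4 differences held under T cell and Foxp3 scaling and without any 1 library. The corresponding differences from blood did not: with T cell scaling only lymph node still exceeded blood, by 0.35 on the log2 scale, and blood then exceeded lung by 0.52 (1.22 with Foxp3 scaling).

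Stat5a and Stat5b were far higher in lung than anywhere else. Stat5a read 243.41, 223.95 and 223.97 TPM in lung, 91.29, 77.18 and 73.24 in liver, 69.80, 70.15 and 67.86 in lymph node and 51.03, 51.18 and 50.32 in spleen. The lowest readings were 34.75, 39.54 and 39.12 TPM in blood and 36.99, 35.36 and 36.87 in bone marrow, a pair that did not pass (adjusted p = 0.715). Scaled to T cell genes, blood exceeded bone marrow by 0.62, and scaled to Foxp3 by 0.77. Lung exceeded the other sites 2.86-fold (liver) to 6.33-fold (bone marrow), with log2 fold changes of 1.51 to 2.63 (standard error 0.08).

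Stat5b read 252.27, 256.98 and 305.27 TPM in lung, and 95, 116.64 and 104.97 in liver. Lymph node held 100.60, 99.63 and 96.91 TPM, bone marrow 79.09, 79.29 and 84.12, spleen 76.57, 79.97 and 78.51, and blood 78.22, 79.79 and 75.98. Lung lay above all other libraries, 2.57-fold to 3.48-fold by means, whereas no pair of blood, spleen and bone marrow passed on the deposited scale (adjusted p = 0.711 to 0.984). With T cell scaling, Stat5b in blood exceeded that in spleen by 0.88 and that in bone marrow by 0.52, and spleen was below bone marrow (-0.36). With Foxp3 scaling, blood exceeded both, by 0.64 and 0.68. For both genes the higher level in lung passed against all 5 other sites under every alternative tried, with adjusted p up to 0.00607. In transcript sequence, 608 stretches of 50 bases occur in both genes, 14.7% of those of Stat5a and 11.1% of those of Stat5b, so the division of reads between them is less certain than their sum. No other pair of the 10 genes shared any such stretch. The 3′ end of Stat5a also overlaps Stat3 on the opposite strand.

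Cish, an inhibitor that STAT5 induces directly and that limits signalling, was the gene that set blood apart. Its libraries held 16.71, 17.95 and 16.90 TPM in blood, against 60.90, 63.38 and 62.00 in spleen, 76.14, 77.47 and 74.76 in bone marrow and 94.03, 88.63 and 92.40 in lymph node. Lung held 86.56, 89.97 and 98.43 TPM and liver 112.90, 99.61 and 109.42. Every blood library lay below all others, and the level was 3.61-fold (spleen) to 6.24-fold (liver) higher elsewhere. The log2 fold change of blood was -1.79 against spleen, -2.08 against bone marrow, -2.35 against lung and lymph node and -2.57 against liver, each with a standard error of 0.07 and an adjusted p of 1.78e-11 or less. Relative to the T cell mean, Cish was 11.2% in blood and 21.7% (spleen) to 37.5% (lung) elsewhere. Relative to Foxp3, it was 0.194 in blood and 0.384 (lymph node) to 0.725 (liver) elsewhere. The difference thus shrank but passed in all 5 comparisons under each alternative (adjusted p up to 2.52e-05). Among the other sites, lung and lymph node passed only with T cell scaling (0.50) and median-ratio scaling (adjusted p = 0.0237). Liver was highest, but its lead over lung lost its call without the first liver library (adjusted p = 0.0604). It also did so without the first (0.0704) or second lung library (0.051). The call was lost under library weights (0.192) and when only these 6 libraries were fitted (0.141). Under T cell scaling, lung and liver could not be ordered (0.066 in favour of lung, adjusted p = 0.4875). Cish in lymph node exceeded that in bone marrow by 0.26 on the deposited scale but fell below it with T cell (-0.32) and Foxp3 scaling (-0.42).

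Socs1, which blocks the kinase activity of Jaks, was the least abundant of the 10 genes, with 8.44, 8.62 and 7.89 TPM in blood. It averaged 12.39 ± 2.89 TPM in liver, 17.59 ± 0.291 in bone marrow, 28.71 ± 0.910 in lymph node, 29.94 ± 5.51 in spleen and 30.99 ± 3.85 in lung (SD, n = 3). No pair of the 3 highest sites passed, while each step from lymph node to bone marrow, liver and blood passed. The step from lymph node to bone marrow was lost with T cell scaling (adjusted p = 0.636) and Foxp3 scaling (0.985), and that from bone marrow to liver with Foxp3 scaling (0.0698). Lung then exceeded lymph node with T cell scaling (0.58), and spleen exceeded both with Foxp3 scaling (0.64 and 0.79). Blood was lower than lung (log2 fold change -1.77) and spleen (-1.72) under every alternative. Its difference from liver (-0.50, adjusted p = 0.0197) lost the call without the third liver library (adjusted p = 0.0874) and without the third blood library (0.064). The call was also lost when only these 6 libraries were fitted (0.121). Under T cell scaling the difference was 0.38 and did not pass (adjusted p = 0.0503).

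Socs2, another STAT5-induced member, was highest in lymph node, at 65.39, 67.65 and 64.43 TPM. Means were 40.59 ± 4.08 TPM in lung, 37.75 ± 2.71 in spleen, 35.38 ± 3.39 in liver, 27.78 ± 4.10 in blood and 24.82 ± 3.37 in bone marrow. Lymph node exceeded lung by 0.69 on the log2 scale (adjusted p = 0.000339), a call lost with T cell scaling (adjusted p = 0.263), where lymph node no longer exceeded blood either (0.612). On the deposited scale no pair of lung, spleen and liver passed, nor did blood against bone marrow. Blood exceeded bone marrow by 0.72 with T cell scaling and by 0.87 with Foxp3 scaling. Lung exceeded liver by 0.48 with T cell scaling, and with Foxp3 scaling it was below spleen (-0.60) and liver (-0.42). The blood level was 1.36-fold below spleen (adjusted p = 0.012) and 1.27-fold below liver (adjusted p = 0.039). The spleen difference lost its call without the first spleen library (adjusted p = 0.0501) or the second blood library (0.0707). The liver difference did so without the first (0.115) or second liver library (0.0769) and without the second (0.189) or the third blood library (0.0761). It was also lost without the filter on low values (0.0563), with median-ratio scaling (0.0913), under library weights (0.239) and when only these 6 libraries were fitted (0.142).

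Socs3, which acts mainly on receptors of the IL-6 family and is induced by STAT3 as well as STAT5, had the widest range. Lung held 557.46, 592.09 and 626.31 TPM, and blood came next with 127.04, 132.56 and 135.58. Liver held 94.17, 102.18 and 121.60 TPM, spleen 102.53, 80.76 and 82.58, lymph node 88.91, 84.56 and 86.71, and bone marrow 59.58, 66.46 and 67.01. The lung libraries were 4.49-fold (blood) to 9.20-fold (bone marrow) above the rest, with log2 fold changes of 2.16 to 3.18 (standard error 0.10) that passed under every alternative. Unlike Cish, Socs3 was higher in blood than in spleen (0.57), lymph node (0.60) and bone marrow (1.02), all under every alternative. The difference from liver (0.32, adjusted p = 0.017) lost its call without the first liver library (adjusted p = 0.0758) or the third blood library (0.0586), without abundant RNA classes (0.0612), under library weights (0.0715) and when only these 6 libraries were fitted (0.0776).

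Seen from blood, these genes were mostly lower. Against lung, 8 of the 10 were lower and 1, Il2ra, was higher, where limma called 17.3% of all genes lower and 26.4% higher. Against spleen, 8 were lower and Socs3 higher (15.3% and 20.1% of all genes), and against lymph node 9 were lower and Socs3 higher (21% and 16.4%). Against liver, 8 were lower and Socs3 higher (16.1% and 23.3%), and against bone marrow 4 were lower, while Il2ra and Socs3 were higher (18.8% and 13%). The median log2 fold change of the 10 genes was -1.54 against lung, -0.56 against spleen, -1.20 against lymph node, -0.09 against bone marrow and -0.49 against liver. Over all genes tested it was 0.12, 0.00, -0.15, -0.11 and 0.07 in the same order. These comparisons share the 3 blood libraries.

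Scaling to T cell genes changed this picture for most of the 10 genes but not for Cish. Against lung, 6 were then lower and 2 higher, where 7.39% of all genes were lower and 52.2% higher. Against spleen 2 were lower and 6 higher (2.81% and 54.4% of all genes), against lymph node 3 and 4 (1.8% and 58.4%), against bone marrow 2 and 6 (7.25% and 34.8%), and against liver 1 and 5 (4.58% and 62%). The genes still lower in blood were Cish at all 5 sites, Socs1 at every site except liver, Jak3 against lymph node, and Il2rb, Stat5a, Stat5b and Socs3 against lung. With Foxp3 scaling, Cish was again lower in all 5, Socs1 against lung and spleen, Stat5a against lung and liver, Jak3 against spleen, and Stat5b and Socs3 against lung. Higher in blood were 4 of the 10 against lung, 3 against spleen, 5 against lymph node, 6 against bone marrow and 5 against liver. Of all genes, 41.9% to 69.8% were then higher in blood and 1.25% to 6.06% lower.

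**Figure D2:**
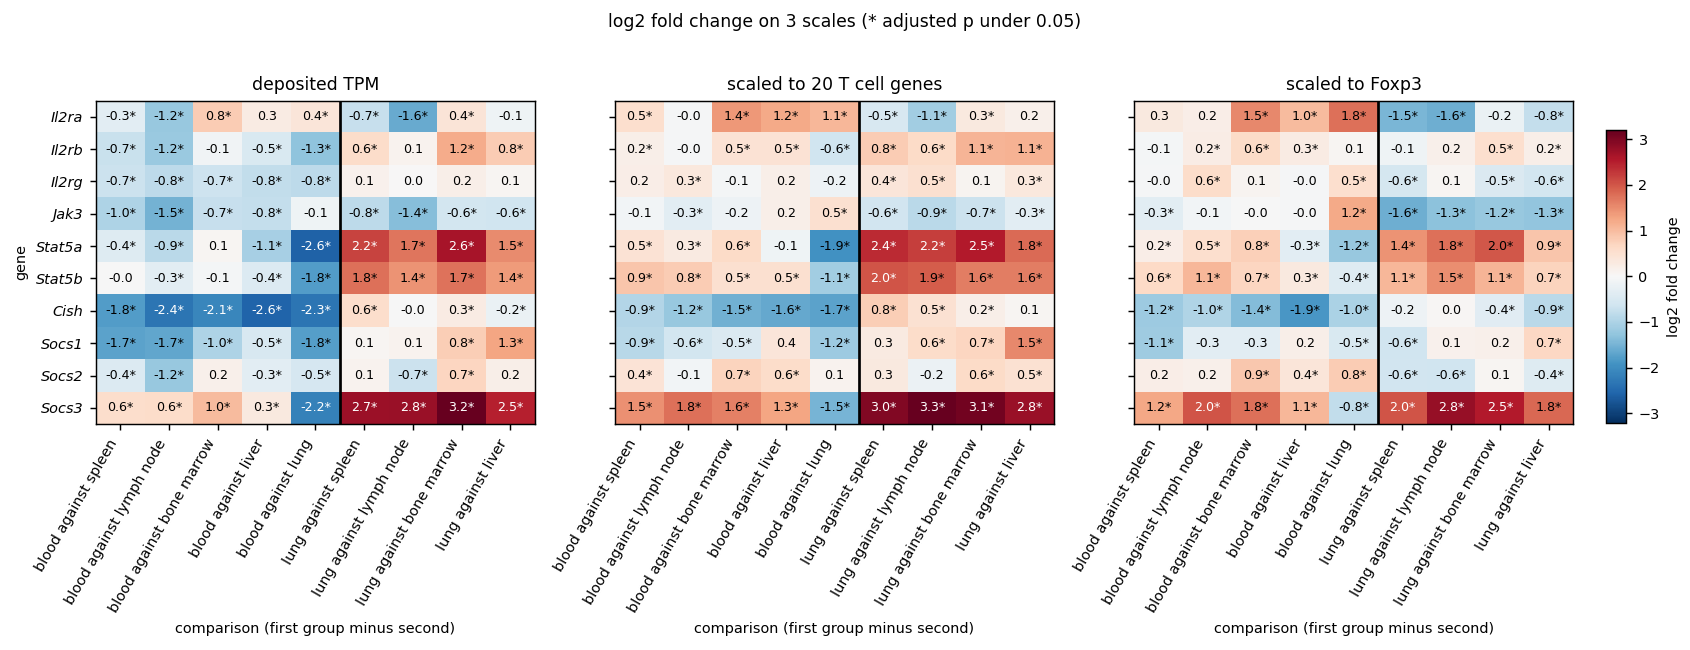
log2 fold change (colour and printed value) of the 10 genes in 5 comparisons of blood and 4 of lung, on the deposited scale (left), scaled to 20 T cell genes (middle) and scaled to Foxp3 (right); asterisks mark an adjusted p under 0.05. The Cish row is negative in all 5 blood columns on each scale, and the Stat5a, Stat5b and Socs3 rows are positive in all 4 lung columns.

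Seen from lung, Stat5a, Stat5b and Socs3 were higher and Jak3 lower against each of spleen, lymph node, bone marrow and liver, on all 3 scales. On the deposited scale, 5 of the 10 genes were higher and 2 lower against spleen, where limma called 18% of all genes higher and 22.8% lower. Against lymph node 3 were higher and 3 lower (14.9% and 27.4% of all genes), against bone marrow 8 and 1 (13.2% and 30.3%), and against liver 5 and 2 (17.3% and 17.6%). These 4 comparisons share the lung libraries.

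Ratios of 2 genes within a library do not depend on how the library is scaled. Il2ra over Il2rb was 0.599 ± 0.0125 in blood and 0.607 ± 0.0136 in lymph node, then 0.465 ± 0.0345 in spleen, 0.360 ± 0.0719 in liver, 0.312 ± 0.0171 in bone marrow and 0.184 ± 0.0172 in lung (SD, n = 3). The lung libraries (0.172 to 0.203) lay below every other library, and blood and lymph node overlapped. Jak3 over Stat5b was 0.218 ± 0.0262 in lung, 0.685 ± 0.0480 in blood and 0.882 ± 0.174 to 1.55 ± 0.0143 elsewhere. Stat5a over Stat5b ran from 0.451 ± 0.0152 in bone marrow and 0.485 ± 0.0365 in blood to 0.857 ± 0.116 in lung, where single libraries spread from 0.734 to 0.965 and overlapped liver. Socs3 over Cish split the sites into 2 sets: 7.67 ± 0.324 in blood and 6.46 ± 0.110 in lung, against 0.846 ± 0.0579 to 1.43 ± 0.222 in the other 4. In blood this came with little Cish and also with more Socs3 (mean 131.7 TPM) than at those 4 sites (64.35 to 106.0). In lung it came with much Socs3.

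**Figure D3:**
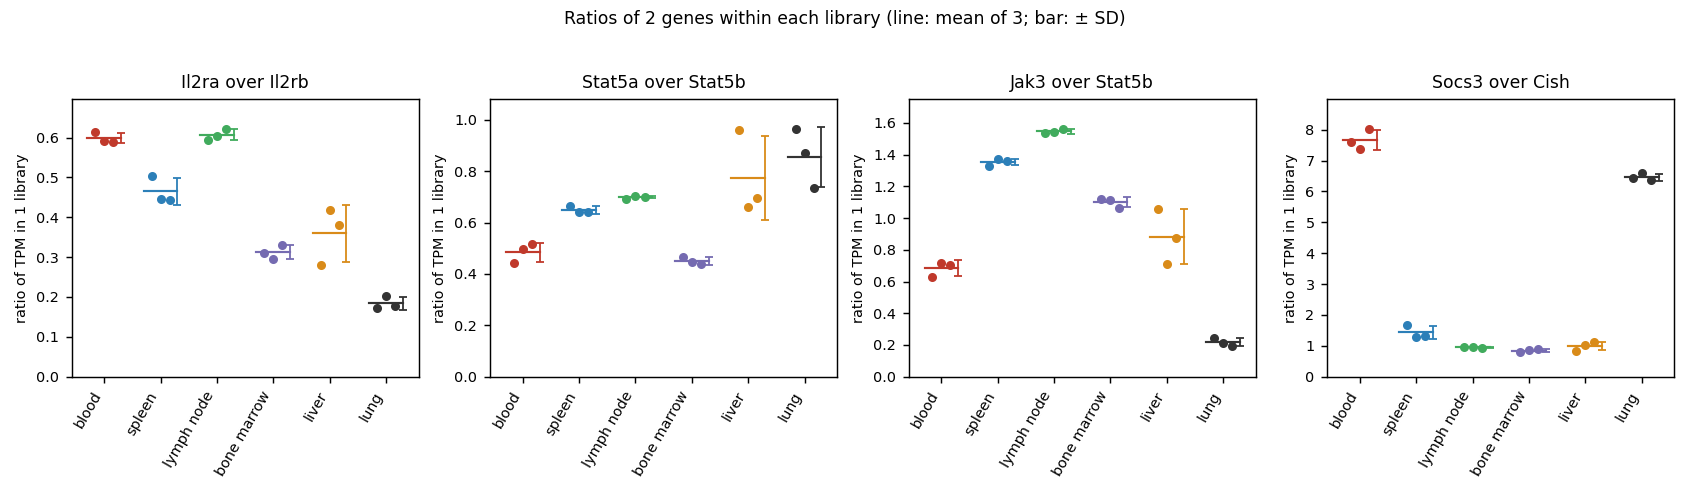
Ratio of the TPM of 2 genes within each library (vertical axis, from 0) by site; points are libraries, horizontal lines are means of 3 and bars are ± SD. Il2ra over Il2rb and Jak3 over Stat5b are lowest in lung, and Socs3 over Cish is 7.385 to 8.022 in blood, 6.363 to 6.581 in lung and at most 1.684 at the other 4 sites.

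Among the cytokines that use these receptor chains, Il2 itself was at 13.9 ± 1.74 TPM in spleen and 14.1 ± 6.27 in liver (SD, n = 3), 5.03 ± 1.21 in lung, 1.11 ± 0.750 in blood, 0.713 ± 0.216 in lymph node and 0.210 ± 0.139 in bone marrow. Blood was lower than spleen, liver and lung on the deposited scale (log2 fold changes -2.88, -2.80 and -1.56). Il15, whose receptor shares Il2rb and Il2rg, averaged 27.2 ± 5.79 TPM in blood and at most 7.67 ± 2.24 elsewhere, and was higher in blood than at each site on all 3 scales. The myeloid markers given above were also high in blood, though highest in bone marrow. Il4 (0.00 to 4.58 TPM by site means) and Il21 (0.00 to 1.53) were low everywhere, Il7 was below 1 TPM at every site and Il9 was at 0 in all libraries. Of the receptor chains that pair with Il2rg, Il7r was 459.5 ± 28.5 TPM in lung and 66.4 ± 1.27 in lymph node, and Il4ra was 288.8 ± 7.16 in lung and at most 110.6 ± 1.65 elsewhere. Il21r was 236.2 ± 6.63 TPM in lung, Il9r was highest in bone marrow (56.2 ± 2.16) and Il15ra ranged from 5.98 ± 4.09 in lung to 26.7 ± 7.29 in liver. Il7r and Il4ra were higher in lung than at the other 5 sites on all 3 scales. In all, 9 of these 11 genes were tested and all 9 passed the F test, as did 68% of all genes. In blood, 5 were lower and 3 higher than in lung, and 6 and 2 against liver. The counts were 4 and 2 against both spleen and lymph node, and 3 and 2 against bone marrow. Of all genes, 15.3% to 21% were lower in these comparisons and 13% to 26.4% higher. With T cell scaling, 4 were lower and 3 higher against lung, 2 and 4 against liver, 2 and 3 against spleen, 1 and 3 against lymph node, and 2 and 5 against bone marrow, beside the shares of all genes given above for that scale.

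Of 16 kinases, other STATs and adaptors, 14 passed the F test, beside 68% of all genes. Jak2 (377.4 ± 38.7 TPM in lung, at most 102.8 ± 7.49 elsewhere), Stat4 (273.4 ± 4.70 against at most 93.4 ± 1.61) and Stat3 (437.8 ± 80.8 against at most 182.0 ± 29.95) were highest in lung, as Stat5a and Stat5b were, with Stat3 subject to the overlap named above. Jak1, which binds Il2rb, varied little: 227.8 ± 3.02 TPM in spleen to 355.2 ± 10.1 in lung. Syk (153.6 ± 6.85) and Gab2 (13.2 ± 0.926) were highest in blood, followed by bone marrow, the 2 sites with the largest myeloid marker sums. In blood, 7 of the 16 were higher and 6 lower than in lung, 6 and 3 against spleen, and 2 and 4 against lymph node. The counts were 5 and 4 against bone marrow, and 5 and 4 against liver. Of all genes, 13% to 26.4% were higher in these comparisons and 15.3% to 21% lower. Under T cell scaling 10 to 15 of the 16 were higher in blood and at most 3 lower, where 34.8% to 62% of all genes were higher and 1.8% to 7.39% lower. The list's median log2 fold change was then 0.69 to 1.14, beside 0.35 to 0.87 over all genes. Lck is on this list and also among the 20 T cell genes, so that scaling partly sets its value. It was the gene lower in blood against spleen (-0.28) and lymph node (-0.32) on that scale.

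Of 14 other inhibitors and phosphatases, 13 passed the F test, beside 68% of all genes. Cblb, a ubiquitin ligase that restrains T cell activation, read 179.1 ± 3.98 TPM in lung and at most 45.6 ± 1.39 elsewhere. Dusp5, a phosphatase of MAP kinases that IL-2 induces, was 300.3 ± 6.40 TPM in lung and 284.9 ± 16.2 in liver, but 31.7 ± 1.41 in lymph node and 41.3 ± 1.77 in blood. Ptpn6 (SHP-1) went the other way, with 374.0 ± 5.78 TPM in blood, 45.5 ± 18.8 in lung and 85.8 ± 4.90 in liver. Sh2b3 was 66.2 ± 2.78 TPM in blood and 20.5 ± 2.47 to 40.6 ± 1.24 elsewhere. In blood, 6 of the 14 were higher and 3 lower than in lung, 5 and 2 against spleen, and 3 and 1 against lymph node. The counts were 6 and 1 against bone marrow, and 7 and 3 against liver. Of all genes, 13% to 26.4% were higher in these comparisons and 15.3% to 21% lower. Under T cell scaling 10 to 14 of the 14 were higher in blood and at most 2 lower, beside the shares of all genes given above for that scale. Their median was 0.79 to 1.203, beside 0.35 to 0.87.

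All 20 further genes known as STAT5 targets passed the F test, beside 68% of all genes. On the deposited scale, 12 were lower in blood than in lung and 4 higher, 14 lower than in lymph node and 6 higher, and 11 lower than in liver and 4 higher. Against spleen 9 were lower and 6 higher, and against bone marrow 9 and 3. Of all genes, 15.3% to 21% were lower in these comparisons and 13% to 26.4% higher. The median log2 fold change of the list was -0.77 against lung and -0.98 against lymph node, beside 0.12 and -0.15 over all genes. With T cell scaling, 9 were lower and 7 higher against lung (7.39% and 52.2% of all genes), 6 and 9 against lymph node (1.8% and 58.4%), 4 and 12 against spleen (2.81% and 54.4%), 6 and 10 against bone marrow (7.25% and 34.8%), and 5 and 11 against liver (4.58% and 62%). The median was then -0.14 against lung and 0.14 to 0.43 against the other 4 sites, beside 0.66 and 0.35 to 0.87 over all genes. Tnfrsf9, the costimulatory receptor 4-1BB, was lower in blood than at every site on all 3 scales, at 8.98 ± 1.18 TPM against 25.4 ± 4.63 (bone marrow) to 422.6 ± 16.5 (lung). Gzmb, a protease of cytotoxic granules, was 141.1 ± 15.5 TPM in lung and 6.10 ± 2.30 in spleen. Lta was 74.6 ± 0.767 TPM in lymph node and 4.08 ± 0.719 in lung, and Osm was 108.9 ± 4.37 in bone marrow against 18.7 ± 4.43 in spleen. On the deposited scale, lung was higher for 12, 10, 12 and 11 of the 20 genes against spleen, lymph node, bone marrow and liver. It was lower for 5, 5, 3 and 4, beside the shares of all genes given above for lung. With T cell scaling, 13, 12, 11 and 13 were higher and 5, 5, 3 and 3 lower. On that scale, 23.7%, 27%, 11.6% and 27.6% of all genes were higher in lung and 16.1%, 12.1%, 34.3% and 10.6% lower, in the same order. With Foxp3 scaling, which holds Foxp3 itself constant, 9, 10, 7 and 6 were higher and 8, 5, 7 and 6 lower. Of all genes, 5.06% to 13.8% were then higher and 21.7% to 53.8% lower. Gzmb and Tnfrsf9 are known to be induced through the T cell receptor as well as by IL-2.

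**Figure D4:**
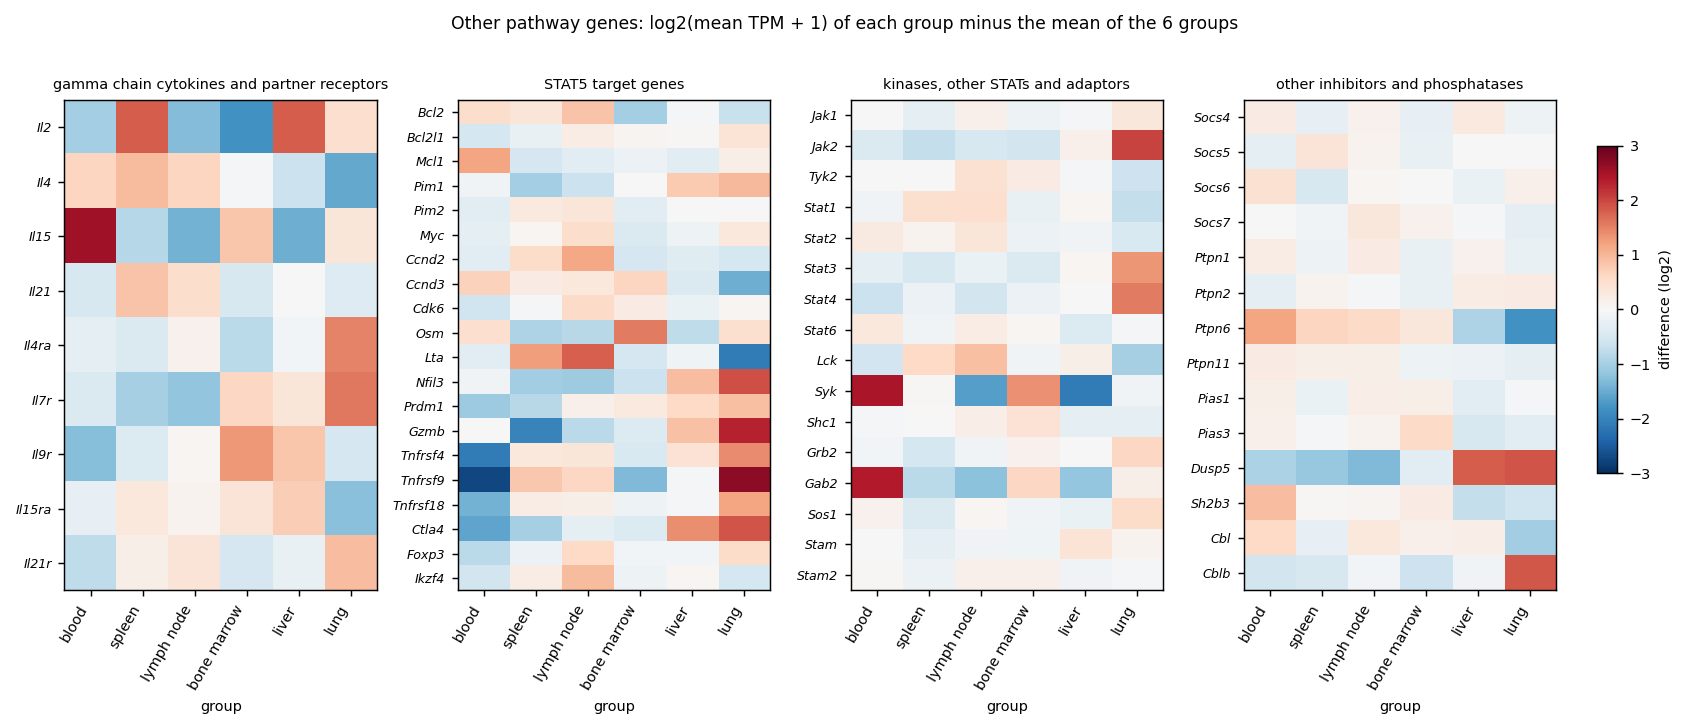
Colour gives log2(mean TPM + 1) of each site minus the mean of the 6 sites, for the tested genes of 4 lists of other pathway genes (rows) by site (columns). Jak2, Stat3, Stat4, Il7r, Il4ra and Cblb are highest in lung, Il15, Syk and Gab2 are highest in blood, and Tnfrsf9 is lowest in blood.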

How the data were processed

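Poly(A) RNA libraries from sorted Treg cells were made with a directional kit, per the labels' protocols. Each library has a table of TPM for 55487 Ensembl gene IDs, made and deposited by the authors, per the file headers. STAR, RSEM and mm10 are named in the submitters' processing notes; the annotation, and whether counting used strand, are not given in the sources used here, so reads of overlapping antisense genes may not be separated. TPM values are shares of a library and keep no depth. Symbols came from GENCODE M21 (55141 IDs matched) and promoter windows from RefSeq (GRCm38.p6). No 2 libraries held identical values.

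Genes with a site mean of at least 1 TPM at 1 or more sites (16694, all 10 members among them) entered limma 3.58.1 (R 4.3.3) on log2(TPM + 1). One model with a mean per site covered all 18 libraries (eBayes with trend and robust settings), so the 15 pairs of sites share 1 spread. P-values were adjusted over all genes tested. The pseudocount of 1 makes fold changes of low genes too small. The procedure was checked on simulated data with known changes. Alternatives were a pseudocount of 0.1, no filter, scaling to 20 T cell genes, to Foxp3 or by median ratios, leaving out abundant RNA classes, library weights, a replicate block, fitting only the 6 libraries compared and leaving out each library; those for lung against the other sites were added after seeing the data. The members, gene lists and tests were chosen with earlier results of these data known. In each pathway list, the 2 genes with the widest range of site means that passed the F test are named among those with blood below, and among those with blood above, the mean of the other 5 sites, as are cytokines and receptors that bind a member. Jak1 and Stat3 were named after their values were seen. For each member, the 3 genes of at least 10 TPM at 1 or more sites with the highest Pearson correlation of log2(TPM + 1) were found, and some of these are given. Il2rg lies within the read-through gene Gm20489, Jak3 overlaps Insl3 and Cish overlaps Gm17040 and Gm17041; these were at 0.00 to 0.37, 0.00 to 22.79 and 0.00 to 2.26 TPM.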

Additional observations from a re-analysis of the deposited data

How the results depend on the processing

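Of the 90 log2 fold changes (10 genes in 5 blood and 4 lung comparisons), 90 kept their direction and call with a pseudocount of 0.1, 89 without the filter, 87 without abundant RNA classes, 86 with library weights, 82 with median-ratio scaling and 82 when only the 6 libraries compared were fitted; none of these alternatives turned a called direction. Scaling to 20 T cell genes turned the sign of 16 called values and Foxp3 scaling that of 21, counted whether or not the new value passed. These scales put higher the genes of a site whose T cell share is low. With T cell scaling, the log2 fold change of blood became 0.11 for Socs2 against lung; 0.55 for Il2ra, 0.18 for Il2rb, 0.21 for Il2rg, 0.46 for Stat5a and 0.43 for Socs2 against spleen; 0.34 for Il2rg, 0.29 for Stat5a and 0.82 for Stat5b against lymph node; and 0.47 for Il2rb, 0.17 for Il2rg, 0.18 for Jak3, 0.52 for Stat5b, 0.38 for Socs1 and 0.59 for Socs2 against liver. That of lung against liver became 0.066 for Cish. Of these values, Socs2 against lung, Il2rg against spleen, Il2rg, Jak3 and Socs1 against liver, and Cish did not pass (limma adjusted p = 0.0503 to 0.4875). With Foxp3 scaling, blood changed to 0.073 for Il2rb, 0.54 for Il2rg and 0.80 for Socs2 against lung, and to 0.31 for Il2ra, 0.22 for Stat5a and 0.20 for Socs2 against spleen. Against lymph node it changed to 0.21 for Il2ra, 0.23 for Il2rb, 0.59 for Il2rg, 0.54 for Stat5a, 1.07 for Stat5b and 0.17 for Socs2, against bone marrow to 0.083 for Il2rg, and against liver to 0.26 for Il2rb, 0.31 for Stat5b, 0.18 for Socs1 and 0.38 for Socs2. Lung changed to -0.13 for Il2rb and -0.16 for Cish against spleen, and to -0.22 for Il2ra and -0.37 for Cish against bone marrow. Several of these Foxp3-scaled values did not pass (limma adjusted p = 0.0871 to 0.4675). In blood they were Il2rb against lung, Il2ra and Socs2 against spleen and lymph node, Il2rg against bone marrow, and Socs1 against liver. In lung they were Il2rb and Cish against spleen, and Il2ra against bone marrow. T cell scaling left 17 of the 50 neighbouring pairs of sites past the threshold, against 27, and Foxp3 scaling left 6 of the 10 genes called for blood against lymph node, against 10. Leaving out 1 library kept 522 of 540 values, ended 14 calls and added 4; all 10 genes kept passing the F test, and 23 to 28 neighbouring pairs passed. The genes called in blood then numbered 9 against lung, 7 to 9 against spleen, 10 against lymph node, 6 against bone marrow and 6 to 9 against liver. The labels number the libraries 1 to 3 at each site, but same-numbered libraries of different sites did not deviate together (mean correlation of deviations 0.006 over 45 pairs, -0.003 over 90 pairs with different numbers), so the numbers were not taken to pair samples. A fit with the replicate number as a block (replicate block) called the same numbers of genes, 10 by the F test and 9, 9, 10, 6 and 9 in blood against lung, spleen, lymph node, bone marrow and liver, and changed none of the 90 calls; 26 neighbouring pairs passed, against 27. TPM keeps no read depth, so counting error could not be separated from the spread between libraries.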

Other observations

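The genes whose levels ran most like each member over the 18 libraries are given as a description, since libraries of 1 site share their source and RNA from other cells moves many genes together. Cish ran closest with Ccr8 (Pearson r = 0.975), a chemokine receptor of tissue Treg cells that was 0.507 TPM in blood and 91.3 in liver, and with Maf (0.965), a transcription factor that was 20.6 TPM in blood and 83.5 to 131.7 elsewhere. Stat5a ran closest with Plcxd2 (0.98). Stat5b ran closest with Cblb (0.985) and Socs3 with Bcl2l11 (0.974), which encodes the death protein Bim and was 168.1 TPM in lung and at most 31.9 elsewhere. Il2rb ran closest with Galnt6 (0.978), Nt5e (0.975), which encodes the ectoenzyme CD73, and Il21r (0.955). Il2ra ran closest with Nsg2 (0.949) and Jak3 with Carmil2 (0.971) and the kinase Fyn (0.966). Il2rg ran closest with Spock2 (0.939), Socs1 with Tbc1d10a (0.94) and Socs2 with Rpl31 (0.93).

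Among the 10 genes themselves, the highest correlations over the 18 libraries were 0.953 for Stat5a with Stat5b, which share transcript sequence, 0.941 for Il2rg with Cish and 0.918 for Stat5b with Socs3. Cish and Socs3 showed almost no correlation (0.063), nor did Il2ra with Cish (-0.004), and Jak3 ran against Socs3 (-0.602). The 18 points fall into 6 sites, so these values describe the sites and carry no test.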
